A study of Acidomyces sp. 'richmondensis' with 12 samples.

Results

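Among 10043 genes of the acidophilic fungus Acidomyces richmondensis MEY-1, 185 genes (1.84%) were chosen because their transcripts were high in one situation, a strain lacking the gene ArAceA kept without copper, and low again once that strain had met copper. Transcript levels came from RNA sequencing of mycelia and are printed as FPKM, which counts sequenced fragments per kilobase of a transcript after scaling every library to an equal size. The wild-type strain (WT) and the deletion strain (∆ArAceA), both MEY-1, were grown in liquid culture and washed, and then spent 6 h in new medium that held either 15 mM CuCl2 or none. This gave 4 groups of 3 separate cultures: WT, WT with copper, ∆ArAceA and ∆ArAceA with copper. The labels name 1 deletion strain, and how many transformants stand behind it is not given in the sources used here, so the effect of losing ArAceA and that of any other difference of this strain cannot be told apart.

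Copper is needed by every cell as a cofactor of redox enzymes and is toxic in excess. Fungi sense it with transcription factors that bind copper directly. AceA of Aspergillus fumigatus, whose name ArAceA shares, is such a factor and switches on copper export when copper is in excess. The genes described here are known by locus identifiers only, which the files do not pair with names, so no function is given to any of them, and the level of ArAceA itself was not analysed here.

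The genes were chosen on 3 differences of group means on the scale log2(mean FPKM + 1), each taken over 3 libraries per group. The level in ∆ArAceA without copper had to exceed that in WT by at least 1, copper had to lower it in ∆ArAceA by at least 1, and the change with copper in WT had to lie between -0.5 and 1. A difference of 1 on this scale is a 2-fold change for genes well above 1 FPKM. The highest group mean had to be at least 5 FPKM and the mean over all 12 libraries under 1000 FPKM. Of the genes within these level limits, 584 met the first condition and 328 the second. The 202 genes that met both were 34.6% of the former and 61.6% of the latter, and the condition on WT removed 12 genes that fell too far and 5 that rose too far. Because these differences chose the genes, test calls on them are given as a description only and are not a test of the list.

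The limits cut through continuous distributions. Just inside and just outside the limit on the genotype difference, genes stood at 1.01 and 0.99. For the fall with copper in ∆ArAceA the values were -1.01 and -0.999. The lower limit on the WT change lay between members at -0.48 and a gene left out at -0.53, and the upper limit between 0.90 and 1.001. The lowest member reached 5.15 FPKM in its highest group, and the nearest gene below the level limit reached 4.79 FPKM. The most abundant member had a mean of 847 FPKM, and no gene failed the upper limit alone.

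**Figure D1:**
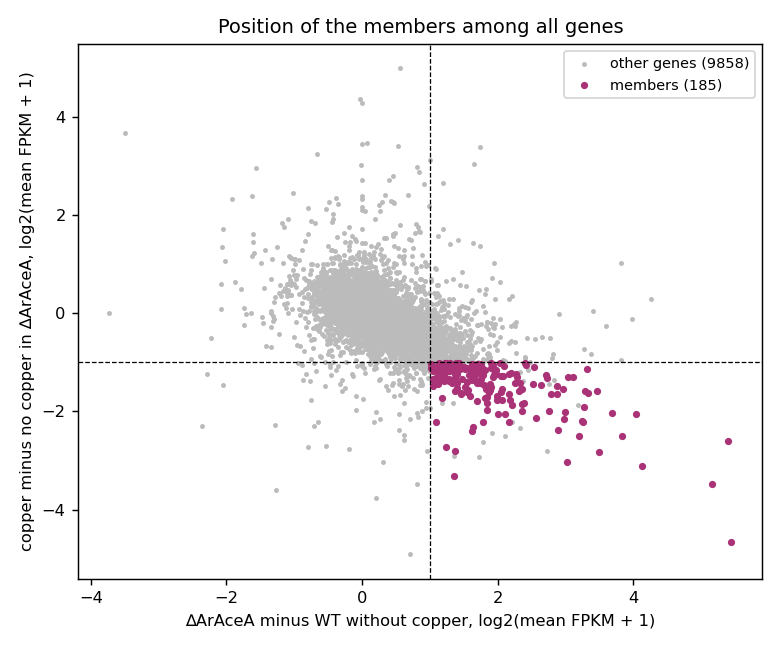
Each point is a gene, with the difference of ∆ArAceA from WT without copper on the horizontal axis and the change with copper in ∆ArAceA on the vertical axis, both as log2(mean FPKM + 1). Dashed lines mark the limits at 1 and -1, and the 185 members occupy the lower right corner, reaching 5.45 to the right and -4.66 downwards.

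In the middle of their distribution the members were genes of modest level that stood several fold higher in ∆ArAceA without copper than in any other group. Taking the median over the 185 genes, the WT libraries without copper stood at 6.08, 6.22 and 6.55 FPKM and those with copper at 6.21, 6.59 and 6.05 FPKM. The ∆ArAceA libraries without copper stood at 22.5, 22.5 and 23.6 FPKM, and those with copper at 7.70, 7.33 and 7.93 FPKM. For comparison, the median over all 10043 genes lay between 14.1 and 16.8 FPKM in the 12 libraries. The median of the members thus lay below the median gene in 9 libraries and above it in the 3 ∆ArAceA libraries without copper. The rule, which asks for a high level in that group, favours this order. Single members differed, and 31 lay between 20 and 100 FPKM and 9 above 100 FPKM in WT.

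Together the members held 0.455 ± 0.039% of all FPKM in WT (mean ± SD, n = 3 cultures, here and for the group values that follow) and 0.434 ± 0.046% in WT with copper. Their share was 1.73 ± 0.078% in ∆ArAceA and returned to 0.506 ± 0.026% in ∆ArAceA exposed to copper. The 10 most abundant members made up 49.5% of the members' FPKM in ∆ArAceA without copper, and the 2 most abundant made up 21.8%. In each of the 185 genes, all 3 ∆ArAceA libraries without copper lay above all 9 other libraries, as they did in 25.7% of all tested genes. The rule asked for separate means but not for separate libraries, and the same values chose the genes.

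The elevation in ∆ArAceA ranged widely. The median difference from WT on the scale of the rule was 1.70, with quartiles of 1.29 and 2.20. It reached 2 in 60 members and 3 in 19. The change with copper in ∆ArAceA had a median of -1.32, with quartiles of -1.64 and -1.14, and was at least 4-fold in size (-2 or lower) in 26 members. Across all 8741 genes tested, the medians of the same changes fitted by limma were 0.12 and -0.04, against 1.71 and -1.32 in the members. The limma fit called all 185 members higher in ∆ArAceA without copper, as it did 40.8% of all tested genes, and 184 lower with copper in ∆ArAceA, as it did 31.5%, and nothing is read from these counts. Its test of the difference between the copper responses, whose direction the rule fixes, called 184 members more negative in ∆ArAceA, where 25.6% of all tested genes were.

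**Figure D2:**
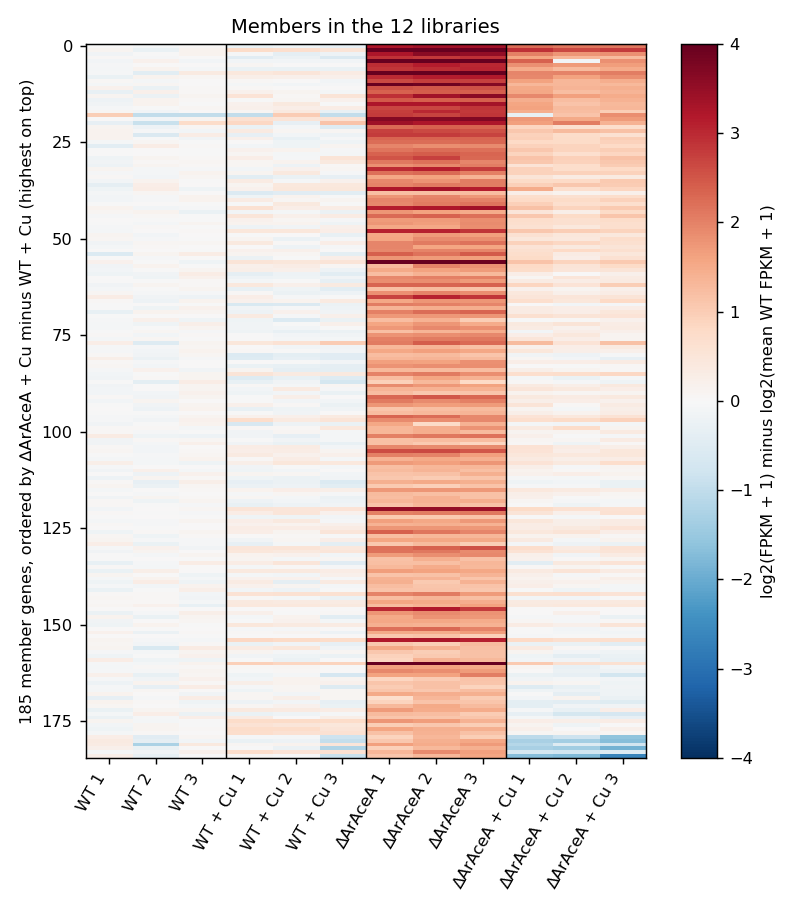
Rows are the 185 members and columns the 12 libraries, with colour for log2(FPKM + 1) minus the log2 of the gene's mean WT level, and rows ordered by the difference between ∆ArAceA and WT with copper. The 3 ∆ArAceA libraries without copper are red throughout, whereas the 3 with copper pass from red at the top to blue at the bottom.

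On the log2(mean FPKM + 1) scale of the rule, M433DRAFT_63521 had both the largest elevation and the deepest fall. That scale compresses the changes of genes near 0 in WT, such as M433DRAFT_6626, so the order differs from that of ratios of means. For M433DRAFT_63521, WT without copper gave 3.78, 3.65 and 4.39 FPKM, whereas ∆ArAceA gave 212, 225 and 206 FPKM, a 54.4-fold difference of means. With copper it stood at 9.21, 6.75 and 6.55 FPKM in ∆ArAceA, 28.6-fold below the level without copper. In WT copper was accompanied by 8.62, 7.88 and 8.07 FPKM, so the libraries of both genotypes overlapped with copper and were far apart without it.

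M433DRAFT_60963 had the next largest elevation on that scale, and its level with copper stayed above that of WT. Its levels were 10.3, 7.75 and 10.5 FPKM in WT, 456, 471 and 399 FPKM in ∆ArAceA, and 78.8, 64.3 and 72.5 FPKM in ∆ArAceA with copper. WT with copper stood at 16.6, 15.8 and 13.99 FPKM. No library of any group overlapped with those of another in this gene, and ∆ArAceA with copper remained 4.65-fold above WT with copper.

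M433DRAFT_6626 was listed at or near 0 in every WT library. It was listed at 0, 0.22 and 0 FPKM in WT and at 0 in all 3 WT libraries with copper, whereas ∆ArAceA gave 31.6, 34.3 and 45.9 FPKM. With copper the ∆ArAceA libraries were uneven, at 4.49, 0 and 2.79 FPKM, so the fall was present in each while the residual level was not.

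M433DRAFT_150203 was the 1 member listed at 0 in all 9 libraries outside ∆ArAceA without copper, and is named because of this, after its values were seen. Its levels in the 3 ∆ArAceA libraries without copper were 7.12, 8.22 and 6.02 FPKM. A fold is not given against groups at 0, and a listed 0 at unknown depth does not show that the transcript was absent.

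M433DRAFT_70861 came closest to the median profile of the members over the 12 libraries on the log2(FPKM + 1) scale (Pearson's r = 0.997 over libraries that the rule had used, as a description). It stood at 1.56, 1.41 and 1.53 FPKM in WT, 1.52, 1.48 and 1.30 FPKM in WT with copper, 6.78, 6.60 and 7.97 FPKM in ∆ArAceA and, once copper was present, 2.0, 1.99 and 2.11 FPKM. Its difference of 0.32 (SE 0.097) from WT with copper was called by limma (adjusted p = 0.0157), and not after median-of-ratios scaling (0.0593) or upper-quartile scaling (0.0536).

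**Figure D3:**
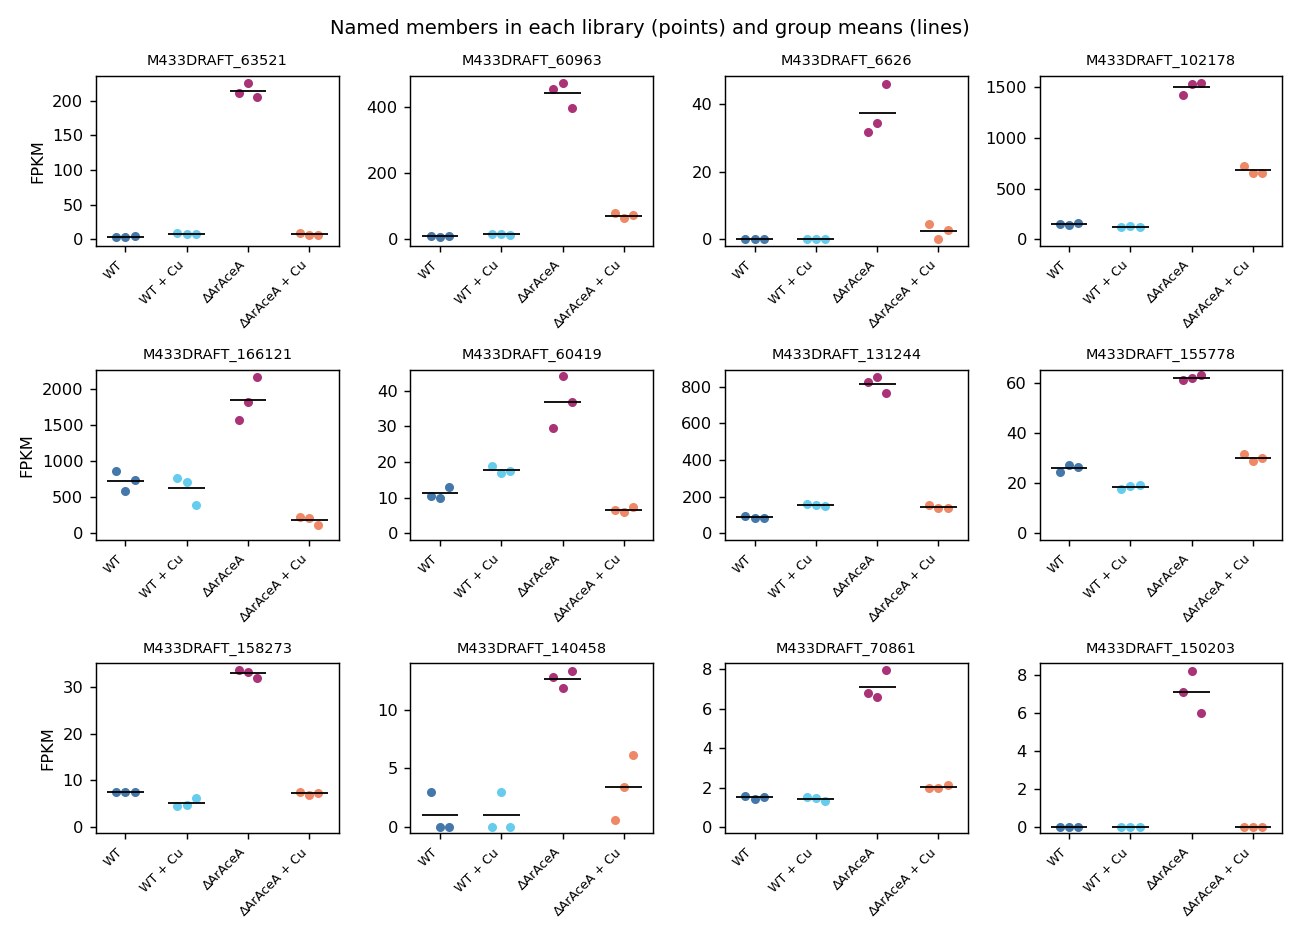
Each panel shows 1 of the 12 named members, with FPKM on a linear axis from 0, a point for each library and a line for each group mean. In all panels the ∆ArAceA libraries without copper lie above the rest, and the panels differ in where the ∆ArAceA libraries with copper fall, from 657 to 726 FPKM in M433DRAFT_102178 to 0 in M433DRAFT_150203.

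The members differed in how abundant they were in WT. In 12 of them the WT mean was under 1 FPKM, and the medians of these 12 were 0.802 FPKM in WT, 0.983 FPKM in WT with copper, 9.42 FPKM in ∆ArAceA and 2.09 FPKM in ∆ArAceA with copper. Another 70 lay between 1 and 5 FPKM in WT, 63 between 5 and 20 FPKM, 31 between 20 and 100 FPKM and 9 above 100 FPKM. The 9 abundant genes had medians of 145 FPKM in WT, 125 FPKM in WT with copper, 358 FPKM in ∆ArAceA and 154 FPKM in ∆ArAceA with copper. The median elevation fell from 2.88 in the lowest class to 1.79, 1.64, 1.30 and 1.37 in the higher ones. A rule that asks for a high value in ∆ArAceA and takes genes from low WT levels upwards admits larger elevations at low WT level, so this order is a description of the list.

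The rule limits both the elevation and the fall, so it largely sets how far copper returned the members to the WT level, and the shares that follow are a description. On the log2 scale of the rule the fall in ∆ArAceA amounted to a median of 81.6% of the elevation, with quartiles of 65.5% and 98.5%. It was under 50% in 13 members, between 50% and 100% in 129 and over 100% in 43. The mean in ∆ArAceA with copper stayed above the mean of WT without copper in 141 members, lay below it in 43 and equalled it, at 0, in M433DRAFT_150203. In 27 members it was below both WT means.

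Set against WT with copper, more members remained higher in ∆ArAceA than had dropped below. By limma's moderated test on log2(FPKM + 1), adjusted over all 8741 genes tested, 93 of the 185 members (50.3%) were called higher in ∆ArAceA with copper, where 35.4% of all tested genes were. Another 13 (7.03%) were called lower, where 11.4% of all genes were, and 79 were not called. All 185 members passed the filter for the test. The median difference was 0.29 in the members and 0.12 over all tested genes. After median-of-ratios scaling, which sets the median gene close to 0, the split was 70 higher (21.7% of all genes) and 23 lower (21.5%), and after upper-quartile scaling it was 74 (22.4%) and 22 (20.6%). The 13 lower calls were 8 without replicate 2 of WT with copper, and 8 without replicate 3 of ∆ArAceA with copper.

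This difference equals the elevation plus the fall minus the WT change, so it was measured on libraries that the rule had used. Choosing genes by a fall in ∆ArAceA favours low values of that strain with copper. The counts are therefore given beside those over all genes and are not a test of the list. Counted by libraries, all 3 of ∆ArAceA with copper lay above all 3 of WT with copper in 101 members (54.6%, against 43.1% of all tested genes), below them in 15 (8.11% against 15.2%), and the groups overlapped in 69.

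The 93 members called higher had a median elevation without copper of 1.99, against 1.40 in those without a call and 1.35 in those called lower. Medians of the 93 were 4.75 FPKM in WT, 4.56 FPKM in WT with copper, 29.8 FPKM in ∆ArAceA and 8.55 FPKM in ∆ArAceA with copper, and 20 of them were at least 2-fold higher with copper on the scale of the rule. The 79 without a call had medians of 6.04, 6.64, 19.3 and 7.02 FPKM in the same order of groups. The 13 lower members were more abundant, with medians of 20.8, 23.9, 55.2 and 17.97 FPKM, and 5 of them were at least 2-fold lower. These classes were formed from the difference they describe.

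**Figure D4:**
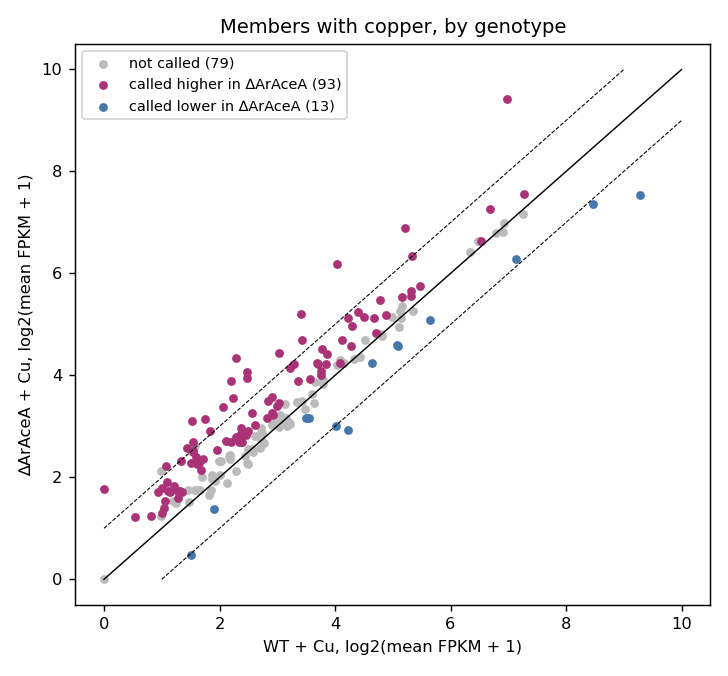
Each point is a member, with its mean level in WT with copper on the horizontal axis and in ∆ArAceA with copper on the vertical axis, both as log2(mean FPKM + 1), coloured by the limma call. The solid line marks equal levels and the dashed lines a difference of 1, and 93 called points lie above the solid line against 13 below it.

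M433DRAFT_102178 stayed furthest above WT by the fitted difference on the log2(FPKM + 1) scale. It was abundant in ∆ArAceA without copper, at 1423, 1536 and 1543 FPKM against 151, 142 and 156 FPKM in WT. With copper it stood at 726, 657 and 658 FPKM in ∆ArAceA and at 124, 132 and 119 FPKM in WT. The fall was 2.21-fold and left the gene 5.45-fold above WT with copper, with no overlap between groups (fitted difference 2.44, SE 0.056, limma adjusted p = 4.24e-12). M433DRAFT_60963, described above, followed with a fitted difference of 2.14 (SE 0.11, limma adjusted p = 1.83e-08).

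M433DRAFT_166121, the member of highest mean level, moved furthest below WT on the same scale. WT libraries gave 857, 587 and 733 FPKM, and ∆ArAceA libraries 1571, 1827 and 2170 FPKM. With copper it stood at 764, 712 and 391 FPKM in WT but at 224, 214 and 115 FPKM in ∆ArAceA. The elevation was 2.56-fold and the fall 10.1-fold, so that with copper the ∆ArAceA mean was 3.37-fold below that of WT. Replicate 3 was the lowest library of both copper groups, and the groups still did not overlap (fitted difference -1.75, SE 0.33, limma adjusted p = 0.00209).

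M433DRAFT_60419 also ended below WT, from a lower level. Its values were 10.4, 9.98 and 13.0 FPKM in WT, 19.0, 16.9 and 17.6 FPKM in WT with copper, 29.6, 44.1 and 37.0 FPKM in ∆ArAceA and 6.41, 6.03 and 7.30 FPKM in ∆ArAceA with copper. Copper thus went with a higher level in WT and a lower one in ∆ArAceA, and every copper library of ∆ArAceA lay below every WT library (fitted difference from WT with copper -1.31, SE 0.13, limma adjusted p = 4.32e-06).

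In WT 144 of the 185 members (77.8%) were not called for copper, a share close to that over all tested genes. The rule had set the range of the members' changes. The median change was 0.02 on the scale of the rule, with quartiles of -0.11 and 0.21. By limma 29 members (15.7%) were called higher with copper in WT, where 10.6% of all tested genes were, and 12 (6.49%) were called lower, where 10.7% were. The rule had removed the genes of larger change, so these shares were not compared further. All 3 WT libraries with copper lay above all 3 without it in 37 members, against 16.4% of all tested genes, and below them in 18 (9.73%, against 18.0% of all tested genes), and the groups overlapped in 130.

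M433DRAFT_63521, given above, had the largest fitted rise of the called WT responders on the log2(FPKM + 1) scale, with means 2.08-fold apart. M433DRAFT_131244 was next on that scale, which places genes of low level lower than their ratios of means would, with WT libraries at 94.9, 84.6 and 84.0 FPKM before copper and at 156, 151 and 146 FPKM after it, a 1.72-fold rise. In ∆ArAceA it moved the other way, from 825, 856 and 767 FPKM to 152, 139 and 139 FPKM. The levels with copper overlapped between genotypes, at means of 151 and 143 FPKM, after starting 9.29-fold apart. In this gene as in M433DRAFT_63521, copper brought the genotypes to overlapping levels from opposite sides. The fitted differences of -0.08 (SE 0.059) and -0.13 (SE 0.10) were not called (limma adjusted p = 0.297 and 0.332). For M433DRAFT_63521 the difference was called lower, at -0.26, without replicate 1 of ∆ArAceA with copper (limma adjusted p = 0.0173).

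The largest fitted falls with copper in WT on the same scale were small by the choice of genes. In WT, M433DRAFT_155778 went from 24.5, 27.4 and 26.5 FPKM to 17.6, 18.9 and 19.2 FPKM with copper, a 1.41-fold fall. In ∆ArAceA it went from 61.3, 61.9 and 63.2 FPKM to 31.7, 28.7 and 30.0 FPKM. M433DRAFT_158273 stood at 7.47, 7.54 and 7.41 FPKM in WT, 4.57, 4.68 and 6.21 FPKM in WT with copper, 33.7, 33.2 and 32.0 FPKM in ∆ArAceA and 7.54, 6.80 and 7.26 FPKM in ∆ArAceA with copper. Both genes therefore fell with copper in either genotype, in the latter gene by 1.45-fold in WT and 4.58-fold in ∆ArAceA.

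Libraries left out when the rule was applied gave the same profile in most genes. The rule itself was set with earlier results of these data known, so these libraries are not independent of it. The shares that follow are a description of the same 12 libraries and not a replication. The rule was applied to 8 libraries, leaving out 1 replicate number from every group, and the 4 left-out libraries were then read. Without replicate 1 the rule chose 201 genes. In the left-out libraries 145 of them (72.1%) again showed an elevation of at least 1 together with a fall of at least 1, against 2.62% of all genes within the level limits, and all 201 showed both directions, against 44.3%. Without replicate 2 it chose 167 genes, of which 150 (89.8% against 3.70%) met both limits and 166 showed both directions. Without replicate 3 it chose 214 genes, of which 154 (72.0% against 2.82%) met both limits and 213 showed both directions.

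The median elevation in the left-out libraries was 1.69, 1.78 and 1.57 for the replicates in turn, where the 185 members had 1.70 over all libraries. The median change with copper in ∆ArAceA was -1.24, -1.40 and -1.23. The median change with copper in WT was 0.08, 0.08 and -0.06. Of the chosen genes 175, 157 and 176 belonged to the 185 members. Whether the replicate numbers pair cultures across groups is not known. Each left-out set is 1 culture of each group, so its differences carry the noise of single libraries. The elevation and the fall in a left-out set share 1 ∆ArAceA library without copper.

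**Figure D5:**
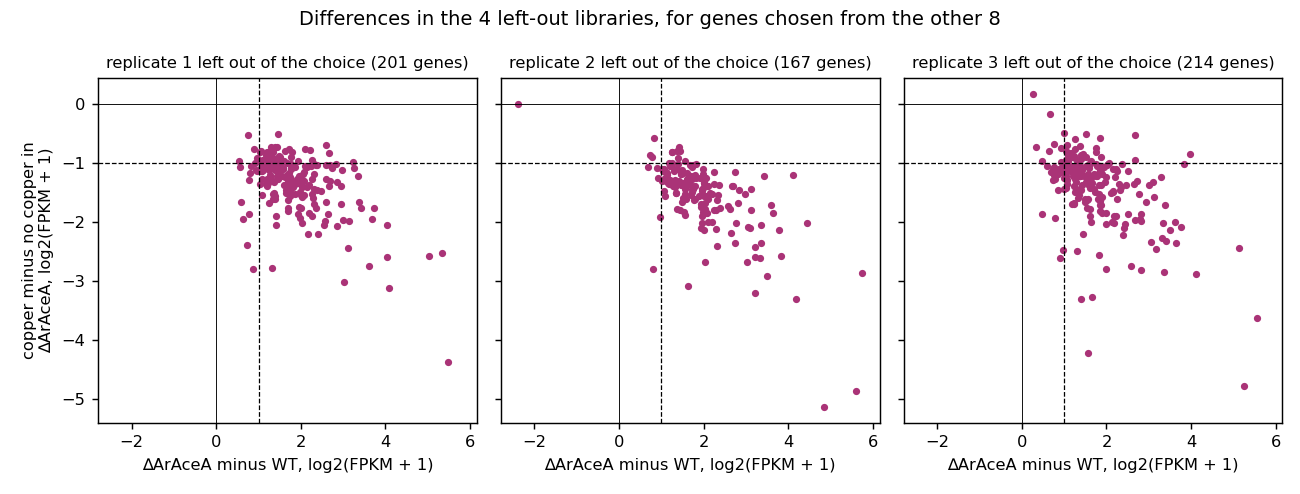
Each panel shows the genes chosen from 8 libraries, placed by their differences in the 4 libraries left out: ∆ArAceA minus WT without copper on the horizontal axis and copper minus no copper in ∆ArAceA on the vertical axis, as log2(FPKM + 1). Dashed lines mark 1 and -1, and 145 of 201, 150 of 167 and 154 of 214 genes lie in the lower right corner.

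The members varied somewhat more between replicate cultures than the typical gene. The median SD of log2(FPKM + 1) was 0.13 in WT, 0.12 in WT with copper, 0.096 in ∆ArAceA and 0.11 in ∆ArAceA with copper, against 0.10, 0.078, 0.073 and 0.075 over all tested genes. Their levels also differed, with 11 to 14 members under 1 FPKM in each WT library and 2 to 4 in each ∆ArAceA library with copper, and the part of level in the spread was not tested. M433DRAFT_140458 had one of the largest spreads, with 2.95, 0 and 0 FPKM in WT, 0, 2.97 and 0 FPKM in WT with copper, 12.8, 11.9 and 13.3 FPKM in ∆ArAceA and 0.62, 3.40 and 6.12 FPKM in ∆ArAceA with copper. M433DRAFT_6626 was the other. Its call as higher in ∆ArAceA with copper (fitted difference 1.46, SE 0.49, limma adjusted p = 0.0346) was lost without any 1 of the WT libraries with copper (0.0744 to 0.0808), and without replicate 1 (0.106) or replicate 3 (0.114) of ∆ArAceA with copper.

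In some libraries most members lay on the same side of their group means. In replicate 1 of ∆ArAceA with copper 135 of the 185 members (73.0%) lay above their group mean, where 53.6% of all tested genes did, and in replicate 2 only 47 (25.4%) did, where 37.5% of all genes did. In WT, 125 members (67.6% against 47.0%) lay above the mean in replicate 3. These shifts were small, with median deviations of 0.06, -0.05 and 0.04 on the log2 scale, far below the differences that define the list. Bulk mycelium cannot tell a change in RNA per cell from a change in the share of cells that make a transcript.

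Genes with only part of the profile are given for comparison, with no test, since their choice sets the differences. Within the level limits, 382 genes met the limit on elevation but not that on the fall. Their medians were 6.63 FPKM in WT, 8.43 FPKM in WT with copper, 19.7 FPKM in ∆ArAceA and 14.5 FPKM in ∆ArAceA with copper. The WT level without copper was thus close to the 6.14 FPKM of the members. Another 126 genes met the limit on the fall but not that on elevation, and these were more abundant in WT, with medians of 37.8, 31.6, 50.5 and 17.4 FPKM in the same order of groups.

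The authors' deposited table gave log2 ratios and Q values that were made apart from the FPKM test used here. They compare the same groups that chose the members, so they are not independent data. For ∆ArAceA against WT without copper, the authors' deposited table listed 183 of the 185 members as higher at Q under 0.05 (23.9% of all genes with a Q), with a median log2 ratio of 1.64 in the members. For copper in ∆ArAceA, the authors' deposited table listed 183 as lower (22.7%), with a median of -1.35. For copper in WT, the authors' deposited table listed 14 of 184 members as higher (6.16% of all genes with a Q) and 8 as lower (5.46%), fewer than the 29 and 12 of the limma fit, with a median of 0.03 in the members. These 3 comparisons use the differences that chose the members. Between genotypes with copper, the authors' deposited table listed 57 of 184 members as higher (15.6% of all genes) and 16 as lower (17.2%), with a median of 0.20 in the members and 0.005 over all genes. Of these calls, 70 had the same direction and were called in the limma fit too.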

How the data were processed

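RNA sequencing libraries of 12 mycelial cultures were grouped by title, genotype and treatment labels. The submitters' processing notes name RSEM 1.2.8, HISAT2 2.1.0 and DESeq2 without their roles. Not given in the sources used here were the genome build, the annotation and the strandedness. For each library the authors deposited FPKM, equal in the series table and in all 12 library files, and log2 ratios with a Q value for 4 comparisons, per the file headers. Read numbers were not used here, so absolute depth is unknown and no counting interval is given. FPKM sums per library ran from 884111 to 926713. Reads shared by near-identical genes were not analysed here.

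The members and the rule that names genes were chosen with earlier results of these data known. Tests used limma 3.58.1 (R 4.3.3), moderated robustly with a trend of variance on mean, on log2(FPKM + 1) for the 8741 genes with at least 1 FPKM in at least 3 libraries, in 1 fit over 4 groups, two-sided, with Benjamini-Hochberg adjustment over all genes and a threshold of 0.05. This scale understates changes of low genes, whereas folds beside FPKM are ratios of group means. The procedure was also run on simulated data with independent noise in each library, without the shared shifts described above, and nothing is read from that run here. Named are the 2 members of largest elevation and the 2 of deepest fall in ∆ArAceA. Between genotypes with copper, and for copper in WT, the 2 extreme called members in each direction are named. The most abundant, the most variable and the most typical are added, plus M433DRAFT_150203. Gene lists and promoter letters had been planned and were not run, since the loci carry no annotation here. The labels do not say whether equal replicate numbers mark paired cultures. For equal numbers, the correlation of deviations exceeded 0.1 in 1 of 3 pairs at most in each comparison, which does not exclude pairing. It ran from 0.05 to 0.16 between the copper groups and from -0.28 to 0.05 between the WT groups. Between unequal numbers it ran from -0.16 (replicate 2 of WT, replicate 1 of WT with copper) to 0.35 (replicate 2 of WT, replicate 3 of WT with copper). Deviations shared between unequal numbers were not taken up by the replicate block. Alternatives covered the pseudocount, group medians, scaling, the limits of the rule, the filter, the groups fitted, a replicate block and leaving out libraries.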

Additional observations from a re-analysis of the deposited data

Results flagged for a closer look

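The copper response was lower in ∆ArAceA than in WT, by limma's test of the difference of responses, in 184 of the 185 members, where 25.6% of all tested genes were called so. The rule asks for a fall in ∆ArAceA and limits the fall in WT, so it fixes this direction and nothing is read from the count. The median difference was -1.38 in the members and -0.03 over all tested genes. The member without a call was M433DRAFT_140458, at -1.88 (SE 1.07).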

How the results depend on the processing

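The number of members followed the limits of the rule: it was 584 with 1.5-fold limits, 45 with 3-fold limits and 103 with a highest group mean of at least 20 FPKM. With a pseudocount of 0.1 it was 223, of which 176 were among the 185. Scaling by the median of ratios gave 156 and by the upper quartile 148, of which 156 and 147 were members. Leaving out single libraries gave 177 to 197 genes. Between genotypes with copper, the lower calls were 23 and 22 after these scalings, against 13 (21.5%, 20.6% and 11.4% of all tested genes). Without single libraries they were 8 to 14 (9.59% to 12.1% of all tested genes). The higher calls were then 78 to 97, against 93 (29.0% to 36.8%, against 35.4%). With the replicate block, 91 were called higher (33.7% of all tested genes) and 12 lower (10.7%). The calls for copper in WT without single libraries were 23 to 32 higher (7.82% to 10.5% of all tested genes). Lower calls were 10 to 15 (7.18% to 10.9%). The replicate block gave 27 higher (9.6%) and 11 lower (8.95%). Since it is not known whether the numbers pair the cultures, the block is given as a check only. Counts in the comparisons that the rule used were recomputed in the same ways, chosen after seeing the data. Without single libraries, 183 to 185 members were called lower with copper in ∆ArAceA (28.1% to 32.1% of all tested genes). Those higher without copper numbered 184 to 185 (37.6% to 41.0%), and those of lower response 182 to 184 (23.1% to 25.7%). Unknown depth limits what can be said of members near 0.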

Other observations

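Fewer genes had the opposite profile. With all limits turned around (lower in ∆ArAceA than in WT without copper by at least 1, raised by copper in ∆ArAceA by at least 1, and a change in WT between -1 and 0.5), 13 genes qualified where 185 did in the direction described. The counts were 16 against 156 after median-of-ratios scaling and 16 against 148 after upper-quartile scaling. How many genes met each turned-around limit alone is not given here. Over all tested genes, limma called 40.8% higher in ∆ArAceA without copper. The part of such a general difference in these counts was not tested. All 13 had a mean of 0.49 to 33.2 FPKM in ∆ArAceA without copper.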
